A study of Mus musculus with 20 samples.

Results

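Fibronectin and 8 matricellular genes of the mouse abdominal aorta are described here across libraries labelled KO and given angiotensin II (Ang II), wild-type (WT) libraries given Ang II, and WT libraries given saline. The genes were chosen by name, as Fn1, Sparc, Sparcl1, Thbs1, Thbs2, Postn, Tnc, Spp1 and Cilp, and are 9 of the 12645 genes that could be tested. Ang II, a peptide hormone known for narrowing arteries and raising pressure in them, was given at 500 ng per kg per min. Each group has 5 libraries, 1 per animal, named here by their titles (KOAngII612, WTAng_II519, WTNS_369), and a further 5 libraries labelled KO were given saline. The series title names DAPK1, a serine/threonine kinase regulated by calcium and calmodulin; the labels give no age, strain or allele, and the genotype field reads only WT or KO with the treatment. The saline animals of the KO group carry a description that calls them WT, while their titles and genotypes call them KO; the titles were used.

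Matricellular proteins are secreted into the extracellular matrix, where they bind matrix fibres, growth factors and cell surface receptors and tune how cells attach, migrate and remodel the matrix, rather than carrying load themselves. Fibronectin is a fibrous glycoprotein that cells assemble through integrins into a provisional matrix. In arteries several of these proteins are known for low levels in the quiescent adult wall and for induction in injured, inflamed or hypertensive vessels. Smooth muscle cells, fibroblasts and macrophages are known sources. Not all members were low here: Sparc, Fn1, Postn and Sparcl1 averaged 1395, 583, 435 and 428 FPKM in the WT saline libraries.

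Fn1 and Postn transcripts differ by whole exons that code for parts of the protein, and Sparc transcripts by 3 bases at a splice acceptor, and these are shown because the transcript results below turn on them. Fibronectin's extra domains B and A are type III repeats that are spliced in or out and are known from wound healing and from activated vascular cells. The extra domain B exon has 273 bases and lies at chr1:71613763-71614035 on the minus strand (GRCm38), as exon 25 of 46 of Fn1-201, and the extra domain A exon has 270 bases at chr1:71603660-71603929, exon 33 of the same transcript. In Postn the upstream exon of 81 bases is at chr3:54380412-54380492 on the plus strand, exon 17 of 22 of Postn-203, and the downstream exon of 84 bases is at chr3:54385671-54385754, exon 20 of 22 of Postn-201. The Sparc bases are at chr11:55407277-55407279 on the minus strand, at the start of exon 3 of 10 of Sparc-201; Sparc-202 lacks them and also starts at another position. Capitals mark the exon, or the 3 acceptor bases of Sparc, and lower case the neighbouring bases of the spliced transcript.
Fn1 extra domain B exon: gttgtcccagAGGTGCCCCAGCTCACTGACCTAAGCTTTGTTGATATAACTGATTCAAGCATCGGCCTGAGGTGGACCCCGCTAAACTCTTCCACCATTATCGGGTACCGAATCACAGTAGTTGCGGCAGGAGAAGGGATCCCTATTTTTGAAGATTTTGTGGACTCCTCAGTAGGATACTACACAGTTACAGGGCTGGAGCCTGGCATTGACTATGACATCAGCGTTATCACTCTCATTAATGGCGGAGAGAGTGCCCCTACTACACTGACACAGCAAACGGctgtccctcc
Fn1 extra domain A exon: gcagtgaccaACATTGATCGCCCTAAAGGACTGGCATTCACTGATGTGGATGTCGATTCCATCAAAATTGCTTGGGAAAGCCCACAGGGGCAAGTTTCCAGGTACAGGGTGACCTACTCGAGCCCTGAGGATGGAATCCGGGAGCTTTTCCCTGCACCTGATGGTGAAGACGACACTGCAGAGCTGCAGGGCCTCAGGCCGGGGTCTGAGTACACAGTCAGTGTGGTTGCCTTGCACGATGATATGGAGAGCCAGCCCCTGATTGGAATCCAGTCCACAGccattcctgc
Postn upstream exon: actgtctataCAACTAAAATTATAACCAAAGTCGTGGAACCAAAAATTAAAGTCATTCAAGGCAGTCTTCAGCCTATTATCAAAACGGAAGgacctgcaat
Postn downstream exon: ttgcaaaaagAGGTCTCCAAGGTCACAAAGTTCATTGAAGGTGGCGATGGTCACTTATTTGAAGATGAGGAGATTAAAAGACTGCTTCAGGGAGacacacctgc
Sparc acceptor bases: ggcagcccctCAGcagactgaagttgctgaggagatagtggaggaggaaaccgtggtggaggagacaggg

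Spp1 has 2 annotated starts, and the 250 bases before each (RefSeq, GRCm38.p6, plus strand) are shown because its transcripts varied separately between libraries. The first window, at chr5:104434861-104435110, precedes the RefSeq start nearest those of Spp1-201 and Spp1-205. The second, at chr5:104435942-104436191, precedes Spp1-204. Capitals mark the letters TATAAA and CCAAT, searched on both strands together with TGACTCA and GGGCGG, of which the first window held TATAAA once, 206 to 211 bases before the start, and CCAAT once on the minus strand (printed as ATTGG), 42 to 46 bases before it. The second window held none of the 4. Among the 32851 promoter windows of the RefSeq table, also of 250 bases, 12.4% held TATAAA, 33.8% CCAAT, 4.46% TGACTCA and 32.7% GGGCGG.
Spp1 first start: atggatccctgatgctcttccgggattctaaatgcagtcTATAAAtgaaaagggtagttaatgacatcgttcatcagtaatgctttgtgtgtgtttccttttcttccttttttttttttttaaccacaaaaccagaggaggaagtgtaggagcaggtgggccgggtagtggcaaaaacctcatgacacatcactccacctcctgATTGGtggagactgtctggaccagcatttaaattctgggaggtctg
Spp1 second start: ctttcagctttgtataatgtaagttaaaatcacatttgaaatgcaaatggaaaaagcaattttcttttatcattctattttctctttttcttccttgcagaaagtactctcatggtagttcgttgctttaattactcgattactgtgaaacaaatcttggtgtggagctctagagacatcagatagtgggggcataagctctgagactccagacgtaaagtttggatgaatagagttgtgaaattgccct

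The deposited values were FPKM, the fragments counted on a transcript relative to its length in kilobases and to the size of the library, and FPKM of the annotated transcripts were summed per gene. Of the 54 transcripts that GENCODE M21 annotates to the 9 genes, 38 were listed in some table, 36 in the WT tables, 37 in the table of the KO-labelled Ang II libraries and 5 in that of the KO-labelled saline libraries. The depth worked out from the steps between low values was 70.2 to 73.4 megareads in the KO-labelled Ang II libraries, 59.0 to 74.5 in WT Ang II and 62.8 to 67.1 in WT saline. The Dapk1 gene sum was 4.997 to 13.8 FPKM in the KO-labelled Ang II libraries, 3.96 to 19.9 FPKM in WT Ang II and 9.48 to 15.4 FPKM in WT saline, so the groups overlapped and the level of this gene does not check the KO label. Marker genes of other tissues varied. The 7 intestinal markers summed to 30.2 to 62.7 FPKM in the KO-labelled Ang II libraries. Their sums were 8.01 to 36.7 FPKM in WT Ang II and 5.83 to 13.3 FPKM in WT saline. Of these markers, Reg3b, Zg16, Defa24, Defa30 and Fabp2 averaged 0 FPKM in WT saline. They averaged 0.626 to 1.62 FPKM in WT Ang II and 3.77 to 9.52 FPKM in the KO-labelled Ang II group. The WT saline sum was that of Lyz1 and Lgals4 alone, which averaged 5.17 and 3.10 FPKM there. The 8 sympathetic neuron markers summed to 2.91 to 754 FPKM in the KO-labelled Ang II libraries. Those sums were 1.08 to 111 FPKM in WT Ang II and 3.22 to 392 FPKM in WT saline. In such bulk tissue, fewer cells of a type and less RNA per cell cannot be told apart.

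No difference of a member passed the test in any of the 3 comparisons. The test was limma on log2(FPKM + 1) with the 15 libraries in 1 model, and a gene passed at a Benjamini-Hochberg adjusted p under 0.05 over all genes tested. For KO-labelled Ang II against WT Ang II, 0 of 9 members passed and 0% of all genes (none of 12645, against 1004 at an unadjusted p under 0.05; smallest adjusted p 0.236). For WT Ang II against WT saline, 0 of 9 members passed and likewise 0% of all genes (617 at an unadjusted p under 0.05; smallest adjusted p 0.393). For KO-labelled Ang II against WT saline, 0 of 9 members passed, against 13 genes or 0.103% of all, 4 of them intestinal markers. These comparisons share libraries, so their values are given side by side and not as independent evidence of each other.

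With Ang II in WT animals, 8 of the 9 members had a positive difference and 1 a negative one, with a median of 0.39, against a median of 0.014 and 52.6% positive over all genes. Between the KO-labelled and the WT Ang II groups, 2 were positive and 7 negative, with a median of -0.20, against -0.008 and 48.6% positive over all genes. Against WT saline, the KO-labelled Ang II group had 6 positive and 3 negative differences, with a median of 0.44, against 0.016 and 52.7% over all genes. These signs depended on the fit. When the mean levels of 3 marker lists (skeletal muscle, brown adipocyte, sympathetic neuron) entered the fit as covariates, 9 of 9 members were positive for KO-labelled against WT Ang II (median 0.32, against 0.007 and 51.2% positive over all genes), and 4 were positive and 5 negative for WT Ang II against WT saline (median -0.02, against -0.010 and 48.2%). For KO-labelled Ang II against WT saline 8 were then positive and 1 negative (median 0.64, against 0.004 and 50.8%). Without covariates, all 7 brown adipocyte markers were positive for KO-labelled against WT Ang II (median 1.00) and negative for WT Ang II against WT saline (median -1.09), and 7 of 8 smooth muscle markers were negative in the first comparison (median -0.41) and positive in the second (median 0.28), none passing. Thbs1 and Tnc, negative on the log2 scale for KO-labelled against WT Ang II, had higher FPKM means in the KO-labelled group, by 1.07 and 1.14 times. Leaving out 1 library moved 22 of the 27 member differences by more than 1.5 times or turned their sign. The members' values differed widely between animals of 1 group. The p-values measure the spread between animals within groups, estimated once per gene over all 3 groups. The spread of the group left out of a comparison thus enters its p-value too. For Thbs1 the SE was 0.40 in each comparison. Its SD was 30.4 FPKM in the KO-labelled Ang II group, 11.7 FPKM in WT Ang II and 2.27 FPKM in WT saline.

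**Figure D1:**
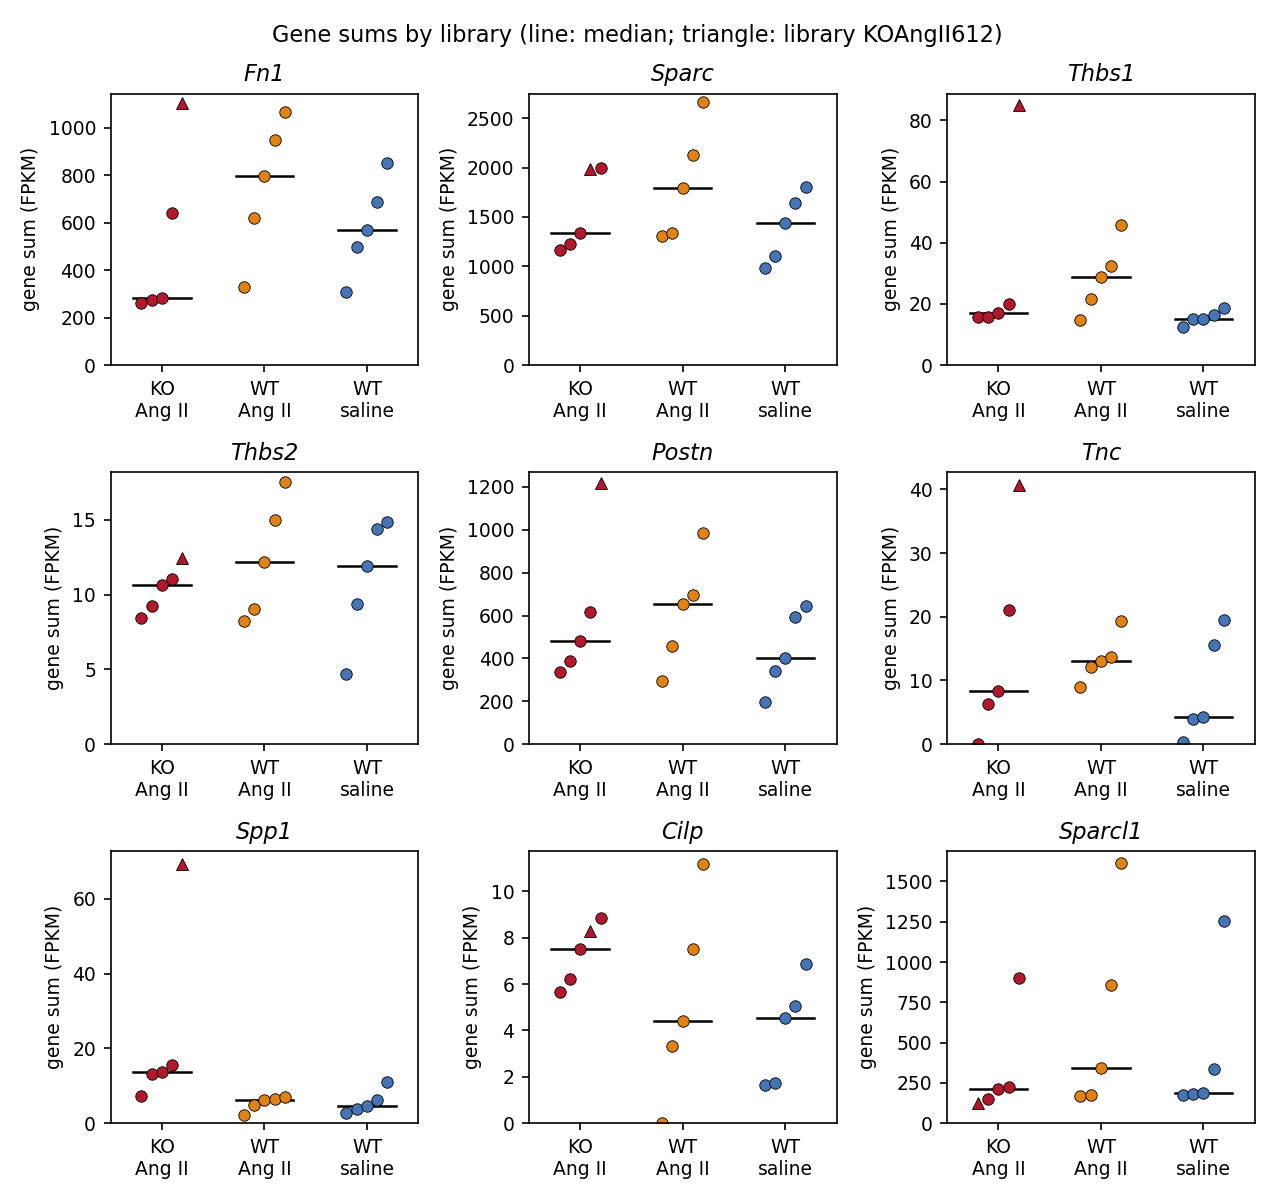
Gene sum in FPKM (y axis, from 0) of each of the 9 genes in the 5 libraries of the KO-labelled Ang II, WT Ang II and WT saline groups (x axis); each point is a library, the line is the group median and the triangle is KOAngII612. KOAngII612 lies far above the other KO-labelled libraries for Thbs1 (85.1 FPKM) and Spp1 (69.3 FPKM), and Spp1 is the only gene whose KO-labelled points all lie above those of WT Ang II.

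Spp1 (chr5:104435118-104441050, plus strand) encodes osteopontin, a secreted phosphoprotein that binds integrins and CD44 and is known as a product of macrophages and of dedifferentiated smooth muscle cells. It had 7.15 FPKM in KOAng_II402, 15.5 in KOAngII537, 13.2 in KOAngII560, 69.3 in KOAngII612 and 13.8 in KOAngII628. In WT Ang II it had 6.49 FPKM in WTAng_II519, 2.27 in WTAng_II536, 6.11 in WTAngII568, 4.84 in WTAngII580 and 7.09 in WTAngII581. In WT saline it had 10.9 FPKM in WTNS_369, 2.77 in WTNS_373, 3.79 in WTNS_523, 4.48 in WTNS_547 and 6.25 in WTNS_550. All 5 KO-labelled Ang II libraries thus lay above all 5 WT Ang II libraries, with KOAng_II402 only just above WTAngII581. The KO-labelled libraries overlapped WT saline through WTNS_369. The separation from WT Ang II rests on Spp1-205, which is not listed for WT and was taken as 0 there. KOAng_II402 had 1.35 FPKM of it, without which that library lies below WTAngII581, WTAng_II519 and WTAngII568. Gene sums with all KO-labelled libraries above all WT Ang II libraries were found for 0.569% of all genes, and in the opposite order for 0.546%. For WT Ang II against WT saline and for KO-labelled Ang II against WT saline 0 of 9 members had groups that did not overlap, where 0.672% and 0.854% of all genes had all libraries of the Ang II group higher and 0.324% and 0.973% all lower.

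The Spp1 mean was 23.8 ± 25.6 FPKM in the KO-labelled Ang II group, 5.36 ± 1.91 FPKM in WT Ang II and 5.64 ± 3.22 FPKM in WT saline (SD, n = 5 each). The log2 difference of KO-labelled Ang II from WT Ang II was 1.58 (SE 0.48), with adjusted p = 0.594 in limma, and from WT saline 1.57 (SE 0.48), with adjusted p = 0.338 in limma. WT Ang II differed from WT saline by -0.01 (SE 0.48). KOAngII612 carried much of the KO-labelled mean: without it the other 4 libraries averaged 12.4 ± 3.63 FPKM, and the log2 difference from WT Ang II was 1.09.

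The 3 listed Spp1 transcripts did not vary together. Spp1-201 had 1.13 FPKM in KOAng_II402, 7.63 in KOAngII537, 12.8 in KOAngII560, 22.8 in KOAngII612 and 7.61 in KOAngII628, against 1.37 to 6.50 FPKM in WT Ang II and 2.28 to 6.08 FPKM in WT saline. Spp1-204, from the second start, ranged from 0.338 to 6.14 FPKM in the KO-labelled Ang II libraries, from 0.0713 to 4.74 FPKM in WT Ang II and from 0.168 to 7.77 FPKM in WT saline. It took 71.0% of the Spp1 sum in WTNS_369, 77.6% in WTAngII568, 63.5% in WTAng_II519 and 65.3% in KOAng_II402, and as little as 1.47% in WTAngII580, so that each group held libraries with most of the sum from either start. Spp1-205 is listed in the KO-labelled Ang II table and not in the WT tables: it had 40.5 FPKM in KOAngII612, 6.21 in KOAngII537 and 1.35 in KOAng_II402 and was at 0 in KOAngII560 and KOAngII628. Transcripts missing from a table were taken as 0. With only the transcripts listed for all 15 libraries the Spp1 difference of KO-labelled from WT Ang II was 1.14. The 2 groups then overlapped, with KOAng_II402 below WTAngII581, WTAng_II519 and WTAngII568.

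**Figure D2:**
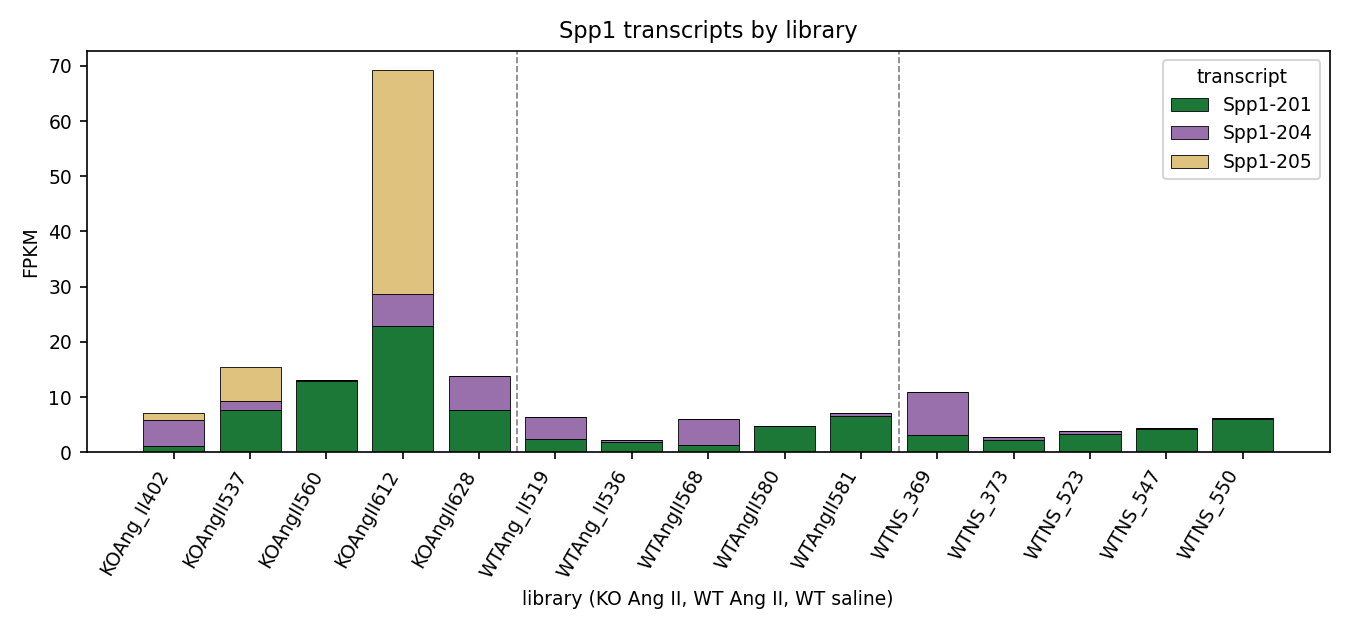
FPKM (y axis) of the Spp1 transcripts Spp1-201, Spp1-204 and Spp1-205, stacked per library (x axis), with dashed lines between the KO-labelled Ang II, WT Ang II and WT saline libraries. KOAngII612 reaches 69.3 FPKM, of which Spp1-205, unlisted for WT, makes up 58.5%.

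Macrophage markers, listed because macrophages express Spp1, summed to 248 to 525 FPKM in the KO-labelled Ang II libraries, highest in KOAngII612, to 344 to 483 FPKM in WT Ang II and to 232 to 338 FPKM in WT saline. All 10 of these markers had positive differences from WT saline in both Ang II groups, with medians of 0.31 in the KO-labelled and 0.56 in the WT group, and 0 of 10 passed. The 5 markers of foamy macrophages, which express Spp1 in diseased arteries, summed to 283 to 464 FPKM in the KO-labelled Ang II libraries, 318 to 391 FPKM in WT Ang II and 266 to 405 FPKM in WT saline. Most of each sum was Cd9, which averaged 266, 286 and 273 FPKM in these groups. For KO-labelled against WT Ang II, 3 of the 5 were positive and 2 negative, with a median of 0.25, and 0 passed. The part of macrophages in the Spp1 values was not tested.

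Fn1 (chr1:71585520-71653200, minus strand) was among the most abundant members. It had 282 FPKM in KOAng_II402, 260.1 in KOAngII537, 639.5 in KOAngII560, 1101 in KOAngII612 and 273 in KOAngII628. WT Ang II libraries had 620.2 FPKM in WTAng_II519, 795 in WTAng_II536, 949.6 in WTAngII568, 331 in WTAngII580 and 1064 in WTAngII581. WT saline libraries had 498 FPKM in WTNS_369, 307 in WTNS_373, 686 in WTNS_523, 852 in WTNS_547 and 570.2 in WTNS_550. The libraries KOAng_II402, KOAngII537 and KOAngII628 were thus lower than every other library, while KOAngII612 was the highest of all 15. The mean was 511 ± 366 FPKM in the KO-labelled Ang II group, 752 ± 289 FPKM in WT Ang II and 583 ± 204 FPKM in WT saline (SD, n = 5 each). The log2 difference of KO-labelled Ang II from WT Ang II was -0.71 (SE 0.43; limma adjusted p = 0.649); it was -1.05 without KOAngII612, -0.53 without KOAngII537 and 0.026 with the marker covariates. WT Ang II differed from WT saline by 0.34 (SE 0.43; limma adjusted p = 0.949), by 0.13 without WTNS_373, by 0.61 without WTAngII580 and by -0.37 with the marker covariates.

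Most of the Fn1 sum lay on transcripts that GENCODE classes as retained introns. Fn1-202, a 4022-base transcript over the 3′ part of the gene, made up 64.4% to 76.0% of the sum in the KO-labelled Ang II libraries, 58.6% to 69.3% in WT Ang II and 56.5% to 77.9% in WT saline. Fn1-215, a 2778-base retained-intron transcript from the middle of the gene, made up 7.20% to 9.82% in the KO-labelled Ang II libraries, 10.3% to 30.7% in WT Ang II and 6.0% to 29.1% in WT saline. Its share in the KO-labelled group was below every WT Ang II library only narrowly (at most 9.82% against at least 10.3%), and overlapped that of WT saline. How often transcript shares separate these groups over all genes was not counted, and the FPKM of Fn1-215 overlapped between them. In FPKM, Fn1-215 had 21.1 in KOAng_II402, 25.5 in KOAngII537, 51.7 in KOAngII560, 79.3 in KOAngII612 and 26.2 in KOAngII628, against 63.7 in WTAng_II519, 244 in WTAng_II536, 249.8 in WTAngII568, 35.6 in WTAngII580 and 305 in WTAngII581. The log2 difference between these 2 groups was -1.87 (SE 0.75; limma adjusted p = 0.728 over 29968 transcripts). The KO-labelled saline libraries had 29.7 to 304 FPKM of Fn1-215, with a median of 209.9 FPKM.

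Transcripts that run the full length of the coding gene were the smaller part of the Fn1 sum. The 7 full-length coding Fn1 transcripts made up 8.63% to 21.1% of it in the KO-labelled Ang II libraries, 4.01% to 13.9% in WT Ang II and 5.36% to 7.68% in WT saline. Of their FPKM, transcripts with the extra domain A exon held 68.2 ± 9.32% in the KO-labelled Ang II group, 70.1 ± 5.46% in WT Ang II and 69.9 ± 8.18% in WT saline (SD, n = 5 each). Transcripts with the extra domain B exon held 18.8 ± 8.85% in the KO-labelled Ang II group, 19.4 ± 2.43% in WT Ang II and 29.1 ± 10.3% in WT saline (SD, n = 5 each). The ranges of both shares overlapped between all groups, and KOAngII612 had the highest extra domain A share of all 15 libraries, at 83.0%. The program that divided reads between these overlapping transcripts is not given in the sources used here, and the error of its division is not known.

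Sparc (chr11:55394500-55423183, minus strand) and Sparcl1 (chr5:104079111-104113733, minus strand) encode related secreted proteins. SPARC binds collagen and is known for roles in collagen fibril assembly, and SPARC-like 1 is known as an anti-adhesive relative found in vessel walls. Sparc had 1231 FPKM in KOAng_II402, 1169.8 in KOAngII537, 1996 in KOAngII560, 1988 in KOAngII612 and 1337 in KOAngII628. WT Ang II libraries had 1307 to 2666 FPKM with a median of 1789.6 FPKM, and WT saline libraries 985 to 1805 FPKM with a median of 1441 FPKM. All groups overlapped. The mean was 1544 ± 413 FPKM in the KO-labelled Ang II group, 1845 ± 571 FPKM in WT Ang II and 1395 ± 349 FPKM in WT saline (SD, n = 5 each). The log2 difference was -0.24 (SE 0.25) for KO-labelled against WT Ang II and 0.39 (SE 0.25) for WT Ang II against WT saline, with limma adjusted p of 0.772 and 0.941.

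Within the Sparc sum, the FPKM assigned to its 2 main transcripts changed places between libraries, in every group. Whether this exchange lies in the RNA or in how reads were divided between these transcripts was not tested. Sparc-201, with the 3 acceptor bases, took 90.6% to 94.8% of the sum in 11 of the 15 libraries and 6.63% to 7.67% in the other 4, where Sparc-202 took 91.0% to 92.7% instead. These 4 were KOAngII560, WTAng_II519, WTAngII568 and WTNS_547. No library lay between, and the sum of both transcripts in those libraries (1992, 2644, 1334 and 1777 FPKM) was in the range of the rest of their group or, in WTAng_II519, WTNS_547 and KOAngII560, at its top. The difference between groups in either transcript did not pass the test (Sparc-202, KO-labelled against WT Ang II, -0.91, SE 1.21, limma adjusted p = 0.881). That value was -0.19 without WTAng_II519 and -1.76 without KOAngII560.

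Sparcl1 had 902 FPKM in KOAngII560, against 126 to 225 FPKM in the other KO-labelled Ang II libraries. In WT Ang II it had 860.2 FPKM in WTAng_II519, 1612 in WTAngII568, 343 in WTAng_II536, 168 in WTAngII580 and 172 in WTAngII581. In WT saline it had 1254 FPKM in WTNS_369, 339 in WTNS_373 and 176 to 188 in the other 3 libraries. The 15 libraries thus fell into 4 at 860.2 FPKM or more and 11 at 343 FPKM or less, with a 2.51-fold gap, and each group held at least 1 of the 4. Sparcl1-201 made up 99.4% of the Sparcl1 sum over all libraries. The log2 difference of KO-labelled from WT Ang II was -0.81 (SE 0.73; limma adjusted p = 0.737), and was -0.33 without WTAngII568, -1.29 without KOAngII560 and 0.070 with the marker covariates.

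**Figure D3:**
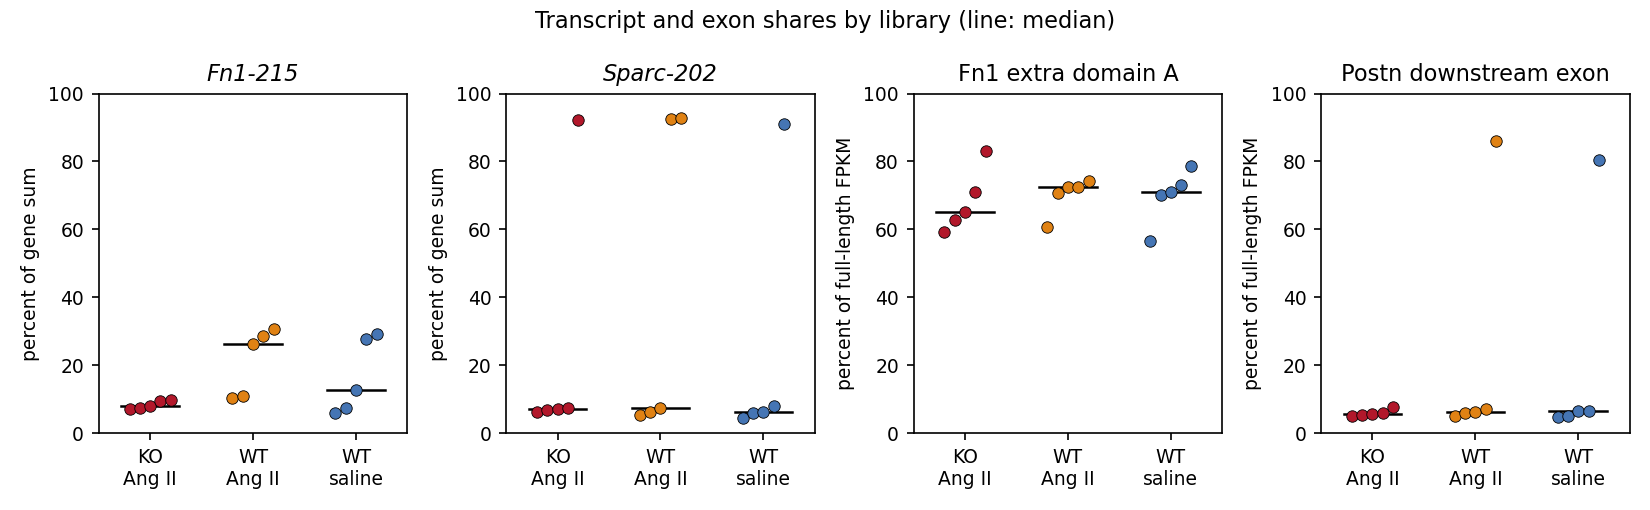
Share in percent (y axis) of Fn1-215 and of Sparc-202 in their gene's FPKM sum, and of Fn1 extra domain A and the Postn downstream exon in the FPKM of full-length coding transcripts, per library in the KO-labelled Ang II, WT Ang II and WT saline groups (x axis), with the group median as a line. Sparc-202 is at 91.0% or more in 4 libraries of all 3 groups, and the Postn downstream exon at 80.3% and 85.9% in 2 WT libraries.

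Thbs1 (chr2:118111876-118127133, plus strand) and Thbs2 (chr17:14665500-14694235, minus strand) encode the trimeric thrombospondins, which bind CD47 and CD36; thrombospondin 1 is also known as an activator of latent TGF-β. Thbs1 had 15.8 FPKM in KOAng_II402, 19.9 in KOAngII537, 16.9 in KOAngII560, 85.1 in KOAngII612 and 15.9 in KOAngII628. WT Ang II libraries had 45.6 FPKM in WTAng_II519, 32.3 in WTAng_II536, 14.7 in WTAngII568, 21.5 in WTAngII580 and 28.8 in WTAngII581. WT saline libraries had 12.5 to 18.7 FPKM, with the smallest coefficient of variation of the 9 members in that group (14.6%). Of the 5 WT Ang II libraries, 4 lay above all WT saline libraries and WTAngII568 lay within their range.

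The Thbs1 mean was 30.7 ± 30.4 FPKM in the KO-labelled Ang II group, 28.6 ± 11.7 FPKM in WT Ang II and 15.5 ± 2.27 FPKM in WT saline (SD, n = 5 each). The log2 difference of WT Ang II from WT saline was 0.76 (SE 0.40; limma adjusted p = 0.941). The difference of KO-labelled from WT Ang II was -0.17 (SE 0.40; limma adjusted p = 0.917), and without KOAngII612, when the KO-labelled mean was 17.1 ± 1.92 FPKM, it was -0.62; without WTAng_II519 it was 0.019. Thbs2 varied less than Thbs1 in both Ang II groups but more in WT saline (coefficient of variation 37.9% against 14.6%). Its mean was 10.4 ± 1.58 FPKM in the KO-labelled Ang II group, 12.4 ± 3.92 FPKM in WT Ang II and 11.03 ± 4.18 FPKM in WT saline (SD, n = 5 each). Its ranges overlapped throughout. Its log2 differences were -0.20 (SE 0.27) for KO-labelled against WT Ang II and 0.19 (SE 0.27) for WT Ang II against WT saline.

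Postn (chr3:54361109-54391037, plus strand) encodes periostin, which binds collagen and integrins and is known as a product of activated fibroblasts. It had 618 FPKM in KOAng_II402, 339 in KOAngII537, 390.1 in KOAngII560, 1216 in KOAngII612 and 481 in KOAngII628. WT Ang II libraries had 293 to 984 FPKM with a median of 652 FPKM, and WT saline libraries 195 to 645 FPKM with a median of 401.96 FPKM. The mean was 609 ± 356 FPKM in the KO-labelled Ang II group, 617 ± 261 FPKM in WT Ang II and 435 ± 184 FPKM in WT saline (SD, n = 5 each). The groups overlapped, and KOAngII612 was 1.97 times the next KO-labelled library. The log2 difference was -0.07 (SE 0.41; limma adjusted p = 0.974) for KO-labelled against WT Ang II and 0.51 (SE 0.41; limma adjusted p = 0.941) for WT Ang II against WT saline.

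The FPKM assigned to Postn transcripts showed an exchange like that of Sparc, in other libraries. Here too it was not tested whether the exchange lies in the RNA or in how reads were divided. Postn-204, which lacks both exons shown above, was the main transcript in 13 libraries, at 73.2% to 82.0% of the sum. In WTAng_II536 it took 7.43% and in WTNS_550 10%, and Postn-201, with the downstream exon, took 64.8% and 65.6%. Among full-length coding Postn transcripts the downstream exon was then in 85.9% of FPKM in WTAng_II536 and 80.3% in WTNS_550, against 4.74% to 7.66% in the other 13 libraries. The upstream exon was in 3.77% to 10.4% of FPKM in the KO-labelled Ang II libraries, 4.52% to 7.66% in WT Ang II and 5.41% to 9.93% in WT saline. None of the 5 KO-labelled Ang II libraries showed the exchange, and no Postn transcript was listed for the KO-labelled saline libraries.

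A test of whether transcripts of 1 gene shifted against each other (limma diffSplice, F test per gene) was made over 4594 genes. It called 24 genes (0.522%) for KO-labelled against WT Ang II, 30 (0.653%) for WT Ang II against WT saline and 14 (0.305%) for KO-labelled Ang II against WT saline. None of the 5 members with at least 2 tested transcripts (Fn1, Sparc, Sparcl1, Postn and Spp1) was among them. Fn1 came closest, with adjusted p = 0.465 in limma for KO-labelled Ang II against WT saline, and adjusted p = 0.699 in limma against WT Ang II. Of single transcripts, 0 (0%), 2 (0.00667%) and 13 (0.0434%) of 29968 passed in the same order of comparisons, and 0 of the members' transcripts.

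Tnc (chr4:63959785-64047015, minus strand) encodes tenascin-C, a hexameric glycoprotein known from developing, wounded and aneurysmal vessels. It had 8.38 FPKM in KOAng_II402, 21.1 in KOAngII560, 40.6 in KOAngII612 and 6.37 in KOAngII628, and was listed at 0 in KOAngII537. These values are of Tnc-204 alone, as Tnc-201 is not listed for the KO-labelled Ang II libraries and was taken as 0. In WT libraries, Tnc-201 made up 1.06% to 3.90% of the Tnc sum with Ang II and 1.76% to 44.6% with saline. For Tnc-204 alone, the log2 difference of KO-labelled from WT Ang II was -0.59 (SE 0.90, limma adjusted p = 0.899). WT Ang II libraries had 19.3 FPKM in WTAng_II519, 13.1 in WTAng_II536, 9.03 in WTAngII568, 13.7 in WTAngII580 and 12.1 in WTAngII581. WT saline libraries had 3.92 FPKM in WTNS_369, 0.378 in WTNS_373, 19.5 in WTNS_523, 15.6 in WTNS_547 and 4.26 in WTNS_550. The WT Ang II libraries were the most alike and lay inside the range of both other groups. The mean was 15.3 FPKM in the KO-labelled Ang II group, 13.4 FPKM in WT Ang II and 8.73 FPKM in WT saline. The log2 difference of KO-labelled from WT Ang II was -0.62 (SE 0.87; limma adjusted p = 0.834), opposite in sign to the difference of the means. It was 0.17 without KOAngII537, the library listed at 0, and from -2.60 with voom on recovered reads to 1.08 with the marker covariates. WT Ang II differed from WT saline by 1.10 (SE 0.87; limma adjusted p = 0.941), by 0.54 without WTNS_373 and by 0.067 with the marker covariates.

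Cilp (chr9:65265180-65280605, plus strand) encodes the cartilage intermediate layer protein, which is known to bind TGF-β and marks activated fibroblasts of the heart. It had 5.68 FPKM in KOAng_II402, 8.83 in KOAngII537, 6.20 in KOAngII560, 8.30 in KOAngII612 and 7.52 in KOAngII628. WT Ang II libraries had 3.31 FPKM in WTAng_II519, 4.39 in WTAngII568, 11.2 in WTAngII580 and 7.51 in WTAngII581, and WTAng_II536 was listed at 0. WT saline libraries had 1.72 FPKM in WTNS_369, 1.64 in WTNS_373, 4.54 in WTNS_523, 5.07 in WTNS_547 and 6.86 in WTNS_550. The KO-labelled libraries were the most alike, and KOAngII537, KOAngII612 and KOAngII628 lay above every WT saline library. The log2 difference of KO-labelled from WT Ang II was 0.79 (SE 0.53; limma adjusted p = 0.662), 0.23 without WTAng_II536, the library listed at 0, and 2.43 with voom on recovered reads; from WT saline it was 0.86 (SE 0.53; limma adjusted p = 0.726).

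The zeros of Tnc and Cilp belong to 43 genes that were listed at 0 in exactly 1 of the 15 libraries and averaged at least 5 FPKM in the others, among them Col6a1 in KOAng_II402 and Sec23b in WTAngII580, named after their values were seen. The 43 also include the sympathetic neuron markers Th, Dbh and Npy at 0 in WTAng_II519, where the markers of that list summed to only 1.08 FPKM. How many genes averaged at least 5 FPKM was not counted, so the share of members cannot be set against that of all genes. Whether such a 0 is a failed estimate was not tested. None of 20 housekeeping genes looked up was at 0 in any library.

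**Figure D4:**
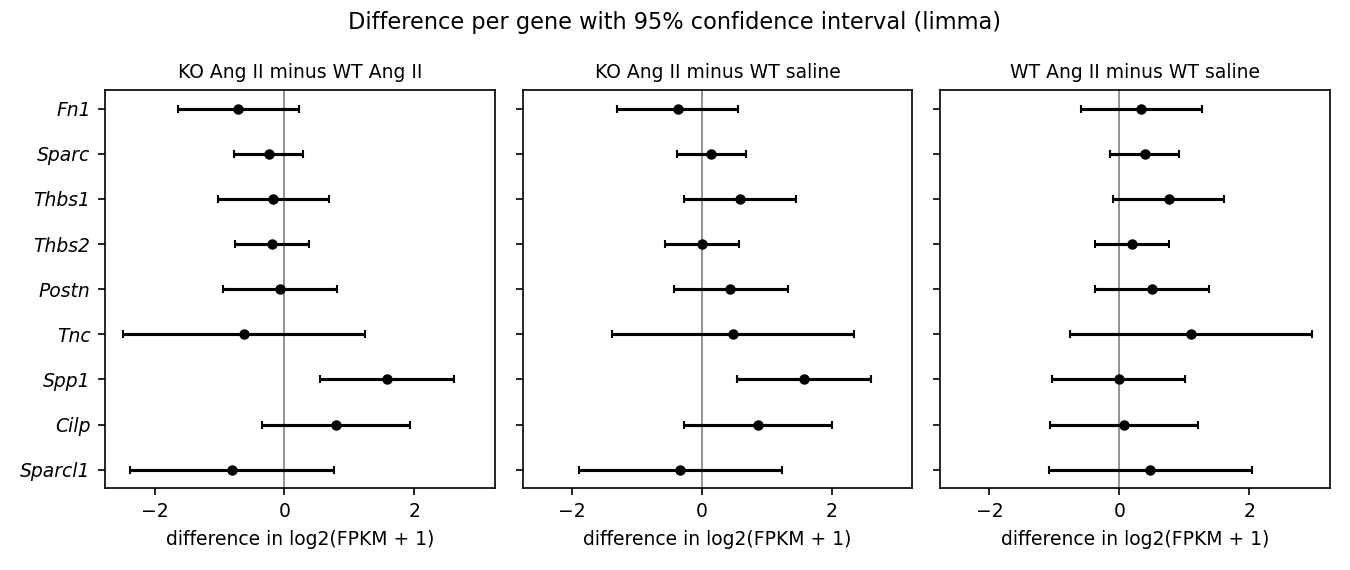
Difference in log2(FPKM + 1) (x axis) of each gene (y axis) for KO-labelled Ang II minus WT Ang II, KO-labelled Ang II minus WT saline and WT Ang II minus WT saline, with 95% confidence intervals from limma, not adjusted for the number of genes. The intervals of Spp1 exclude 0 in both comparisons of the KO-labelled group (0.55 to 2.61 and 0.54 to 2.60), and those of the other 8 genes include 0 throughout.

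Across the 15 libraries Fn1, Sparc, Thbs2, Postn and Tnc varied together. Pearson's r of log2(FPKM + 1) over the 15 libraries was 0.52 to 0.75 for the 10 pairs of these genes, chosen after their values were seen, against -0.43 to 0.75 with a median of 0.36 for all 36 pairs of members. All 5 were above their mean of the 15 libraries in KOAngII612, WTAng_II519, WTAngII581, WTNS_523 and WTNS_547, and all 5 below it in KOAngII537, KOAngII628, WTNS_369 and WTNS_373. Libraries high and low for these genes thus occurred in every group, except that no WT Ang II library was below for all 5. Sparcl1 had r of -0.43 to 0.16 with the other members. The 36 pairs include the 10 chosen ones, so the higher r of the 10 follows in part from that choice. The r of gene pairs in general was not worked out. The points share a library and its tissue makeup. The 7 brown adipocyte markers summed to 341 to 2384 FPKM in the KO-labelled Ang II libraries, 141 to 2385 FPKM in WT Ang II and 559 to 3116 FPKM in WT saline, and the 8 smooth muscle markers to 5548 to 10156 FPKM in the KO-labelled Ang II libraries, 6964 to 14488 FPKM in WT Ang II and 5704 to 12838 FPKM in WT saline. The part of tissue makeup in the members' values was not tested beyond the fit with marker covariates.

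**Figure D5:**
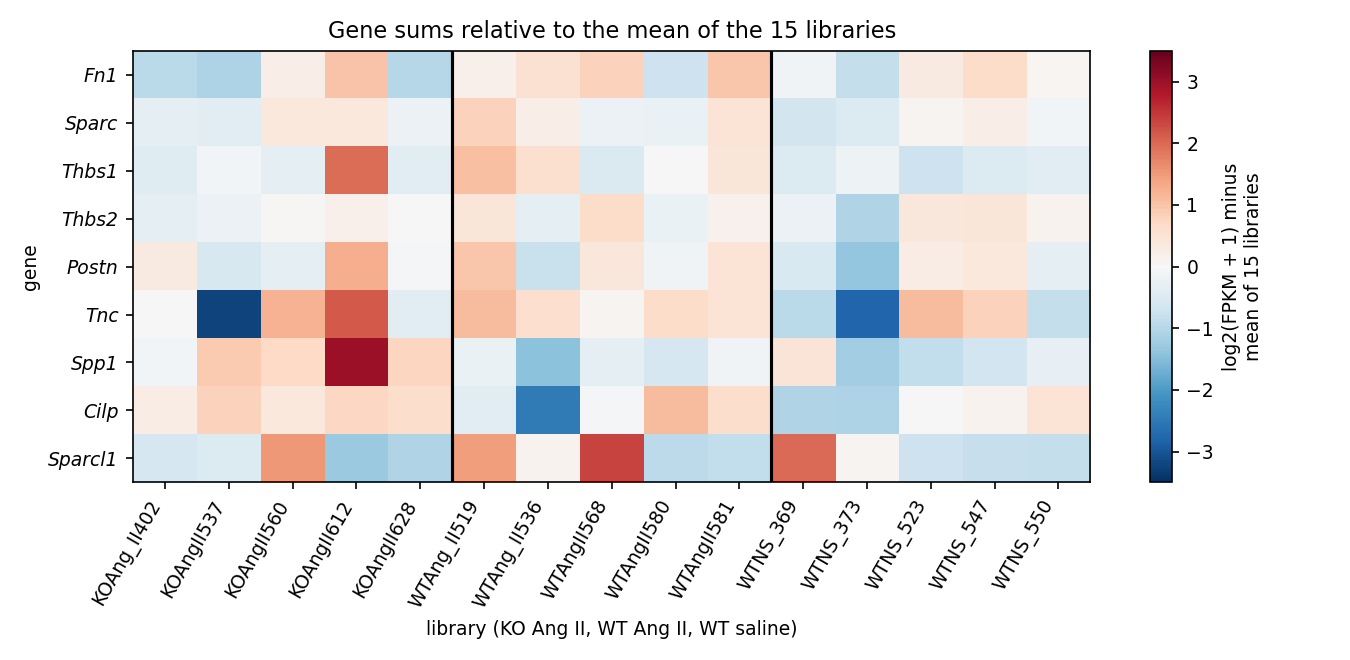
Log2(FPKM + 1) of each gene (y axis) minus its mean over the 15 libraries, as colour, per library (x axis) of the KO-labelled Ang II, WT Ang II and WT saline groups, separated by lines. KOAngII612 is the highest KO-labelled library for 6 of the 9 genes, and the darkest blue cells are Tnc in KOAngII537 and WTNS_373.

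The 3 genes whose log2 values followed each member most closely were taken by Pearson's r over the 15 libraries. The search covered the genes tested, leaving out the members, unnamed gene models, genes named as pseudogenes, Y-linked genes and Xist. As the highest of many genes over few libraries, such r can be high by selection alone, and they were not tested. Fn1 was followed by Ctnna1 (0.938), Tmem123 (0.935) and Cd63 (0.932), and Sparc by Crtap (0.935), a factor for collagen hydroxylation, Cnpy4 (0.929) and Col3a1 (0.912). Thbs2 was followed by Sorl1 (0.949), Map3k20 (0.948) and Endod1 (0.947), and Postn by Col15a1 (0.967), Myrf (0.932) and Bag2 (0.926). Tnc was followed by Plat (0.947), the tissue plasminogen activator, Dclk1 (0.883) and Col6a2 (0.880). The r were lower for Thbs1, with Cdc20 (0.874), Tpm4 (0.864) and Ada (0.849), and for Spp1, with Plk4 (0.885), Pgs1 (0.843) and Tbl3 (0.839). They were lowest for Cilp, with Tpmt (0.820), Gnptab (0.817) and Bbs7 (0.798), and Sparcl1, with Nek1 (0.825), Zfp867 (0.779) and Trim68 (0.760). Several of these genes were low, such as Cdc20, Plk4 and Nek1 at 1.33, 1.2 and 1.90 FPKM on average.

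Other matricellular and associated genes were taken as a list of 28, of which 22 could be tested. For KO-labelled against WT Ang II, 4 were positive and 18 negative with a median of -0.26, for WT Ang II against WT saline 18 positive and 4 negative with a median of 0.24, and for KO-labelled Ang II against WT saline 13 positive and 9 negative with a median of 0.08; 0 of 22 passed in any. The most abundant were Bgn (biglycan), Igfbp7, Dcn (decorin) and Ccn2, which averaged 1635, 1142, 848 and 544 FPKM in the KO-labelled Ang II group, 2010, 1433, 1089 and 664 FPKM in WT Ang II and 1644, 1131, 983 and 630.0 FPKM in WT saline. The smallest p for KO-labelled against WT Ang II were those of Thbs4 (log2 difference 0.92, SE 0.41, limma adjusted p = 0.622), Tgfbi (-0.56, SE 0.26, limma adjusted p = 0.622) and Spock3 (1.24, SE 0.66, limma adjusted p = 0.633). For WT Ang II against WT saline they were those of Fbln2 (log2 difference 0.49, SE 0.16, limma adjusted p = 0.940), Comp (0.61, SE 0.29, limma adjusted p = 0.941) and Emilin1 (1.11, SE 0.56, limma adjusted p = 0.941).

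Receptors of these proteins were listed as 14 genes, all tested. For KO-labelled against WT Ang II, 3 were positive and 11 negative with a median of -0.31, for WT Ang II against WT saline 11 positive and 3 negative with a median of 0.15, and for KO-labelled Ang II against WT saline 4 positive and 10 negative with a median of -0.16; 0 of 14 passed in any. Itgb3, the β3 chain of the vitronectin receptor that binds osteopontin, had 9.01 FPKM in KOAng_II402, 13.9 in KOAngII537, 10.9 in KOAngII560, 24.5 in KOAngII612 and 18.9 in KOAngII628, against 47.3 in WTAng_II519, 37.0 in WTAng_II536, 43.4 in WTAngII568, 13.7 in WTAngII580 and 41.8 in WTAngII581. The groups overlapped through WTAngII580. Its log2 difference between them was -1.17 (SE 0.33; limma adjusted p = 0.584), and Itgav, the partner chain, had -0.78 (limma adjusted p = 0.622) and Cd47 0.49 (limma adjusted p = 0.622). Itgb1, the most abundant receptor chain, averaged 489.9 FPKM in the KO-labelled Ang II group, 571 FPKM in WT Ang II and 533 FPKM in WT saline, with a log2 difference of -0.23 between the Ang II groups.

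Of 10 listed inducers of matricellular genes (TGF-β isoforms, components of the Ang II system and other vasoactive or growth factors), 8 could be tested. For KO-labelled against WT Ang II, 4 were positive and 4 negative with a median of -0.02, for WT Ang II against WT saline 7 positive and 1 negative with a median of 0.21, and for KO-labelled Ang II against WT saline 5 positive and 3 negative with a median of 0.21; 0 of 8 passed in any. Tgfb3 averaged 50.4 FPKM in the KO-labelled Ang II group, 71.0 FPKM in WT Ang II and 51.8 FPKM in WT saline, with log2 differences of -0.48 (limma adjusted p = 0.629) for KO-labelled against WT Ang II and 0.43 (limma adjusted p = 0.941) for WT Ang II against WT saline. Tgfb1 averaged 15.2 FPKM in the KO-labelled Ang II group, 16.2 FPKM in WT Ang II and 14.2 FPKM in WT saline. Agtr1a, the main receptor of Ang II in vessels, averaged 7.20 FPKM in the KO-labelled Ang II group, 2.87 FPKM in WT Ang II and 4.35 FPKM in WT saline, with a log2 difference of 0.84 (limma adjusted p = 0.638) between the KO-labelled and WT Ang II groups.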

How the data were processed

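RNA of mouse abdominal aorta was sequenced in 20 libraries, 1 per animal, in 4 groups of 5. Per the labels' protocols, TRIzol extraction was followed by library preparation with a NEBNext Ultra RNA kit. The authors deposited FPKM per transcript, scaled to library size; per the submitters' processing notes bcl2fastq, FastQC, fastp and the mm10 genome were used, and neither the aligner nor the program that gave FPKM is named in them. Besides Ensembl transcripts, the tables list ones assembled by the authors, which carry no gene name, took 12.2% to 15.8% of the FPKM of the 15 libraries used and were left out of gene sums, so a sum may be incomplete. No read counts were used in the main test; depth was worked out from the whole-read steps of FPKM times length (98.7% to 99.1% of values below 50 reads within 0.05 of a whole number), and at 59.0 to 74.5 megareads counting error is small beside the spread between animals.

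Transcripts were matched to GENCODE M21 (GRCm38), which named 32618 of 32654 Ensembl transcripts of the WT tables and 32908 of 32945 of the table of KO-labelled Ang II libraries. FPKM were summed per gene with unlisted transcripts at 0, genes with a mean of at least 1 FPKM were kept, and log2(FPKM + 1) was tested with limma 3.58.1 in R 4.3.3 (trend and robust options, 15 libraries in 1 model, Benjamini-Hochberg over 12645 genes, threshold 0.05). A log2 difference on this scale understates the change of low genes. Transcripts and shifts between transcripts were tested with limma and its diffSplice function, and the scripts were tested on simulated data. The table of the KO-labelled saline libraries lists 2025 transcripts, 5 of them of members, and entered no test. The members and lists were chosen with earlier results of these data known. Of the lists the text names the most abundant genes and those with the smallest p. For each member it names the most abundant transcripts and the 3 genes with the highest r among those searched.

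The alternatives were another pseudocount, no filter, other treatment of unlisted transcripts, quantile normalization, sample weights, voom on reads worked out from FPKM, marker means as covariates, only the groups compared, only animals numbered 500 and above, and leaving out libraries.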

Additional observations from a re-analysis of the deposited data

Results flagged for a closer look

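Single libraries stood apart from the rest of their group of 5, by a gap to the nearest library of more than 0.71 of the group's range, in 14 of 65 groups of values looked at. Chance flags about 1 in 20 groups if values are normally distributed. FPKM and shares need not be, so the rate by chance may be higher here, and values of 1 gene are not independent. Among gene sums the flagged values were Thbs1 and Spp1 in KOAngII612 (85.1 FPKM, next 19.9 FPKM, and 69.3 FPKM, next 15.5 FPKM), Sparcl1 in KOAngII560 (902 FPKM, next 225 FPKM) and Sparcl1 in WTNS_369 (1254 FPKM, next 339 FPKM). Among transcripts, Sparc-202 stood apart in KOAngII560 (1839 FPKM, next 141 FPKM) and in WTNS_547 (1642 FPKM, next 88.2 FPKM). Postn-201 did so in KOAngII612 (51.6 FPKM, next 22.0 FPKM), in WTAng_II536 (189.7 FPKM, next 36.1 FPKM) and in WTNS_550 (264 FPKM, next 30.2 FPKM). Spp1-204 did so in WTNS_369 (7.77 FPKM, next 0.486 FPKM) and in KONS_555 of the KO-labelled saline group (2.65 FPKM, next 0.629 FPKM). The share of full-length Postn FPKM with the downstream exon was 85.9% in WTAng_II536 (next 6.98%) and 80.3% in WTNS_550 (next 6.65%), and the share of full-length Fn1 FPKM with extra domain A was 60.6% in WTAngII580, below the next, 70.8%.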

How the results depend on the processing

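No member passed under any alternative run. With brown adipocyte, sympathetic neuron and skeletal muscle marker means as covariates, the sign turned for Fn1 (-0.37), Sparc (-0.023), Thbs2 (-0.11) and Sparcl1 (-0.070) in WT Ang II against WT saline, for Fn1 (0.026), Sparc (0.037), Thbs1 (0.32), Thbs2 (0.21), Postn (0.64), Tnc (1.08) and Sparcl1 (0.070) in KO-labelled against WT Ang II, and for Thbs2 (0.096) and Sparcl1 (0.00020) in KO-labelled Ang II against WT saline, where 0 genes were then called; the cause was not tested. The sign also turned for Cilp in WT Ang II against WT saline with a pseudocount of 0.1 (-0.40), sample weights (-0.070), voom on recovered reads (-1.35) or without WTAngII580 and WTAngII581 (-0.66), and for Spp1 with voom (0.013). In KO-labelled Ang II against WT saline it turned for Sparc (-0.011) and Tnc (-0.088) with sample weights, for Thbs2 with a pseudocount of 0.1 (0.0073) and voom (0.0063), for Tnc with voom (-1.08), and, with only animals numbered 500 and above, for Sparc (-0.040), Postn (-0.022), Tnc (-0.42) and Sparcl1 (0.46). Genes called became 15 for KO-labelled against WT Ang II without WTAngII580 and WTAngII581, and for KO-labelled Ang II against WT saline 30 with sample weights and 0 with only animals numbered 500 and above. Without a filter, shifts between transcripts were called for 48 genes in WT Ang II against WT saline, 37 in KO-labelled against WT Ang II and 27 in KO-labelled Ang II against WT saline, and with a pseudocount of 0.1 transcripts called were 2 and 3 in the last 2 of these.

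Leaving out each library in turn, genes called ranged from 0 to 1 in WT Ang II against WT saline, 0 to 7 in KO-labelled against WT Ang II and 7 to 15 in KO-labelled Ang II against WT saline. Transcripts called ranged from 0 to 4, 0 to 5 and 1 to 7 in that order of comparisons, and shifts between transcripts from 12 to 37, 9 to 34 and 11 to 32. Member differences with a change of sign ranged, in WT Ang II against WT saline, from -0.054 to 0.32 for Thbs2, -0.19 to 0.23 for Spp1, -0.27 to 0.63 for Cilp, -1.01 to 0.26 for Sparc-201, -0.12 to 1.36 for Postn-204, -0.076 to 1.32 for Postn-201 and -0.055 to 0.81 for Spp1-204. In KO-labelled against WT Ang II they ranged from -0.62 to 0.019 for Thbs1, -0.36 to 0.13 for Postn, -1.17 to 0.17 for Tnc, -0.13 to 1.14 for Sparc-201 and -0.30 to 0.97 for Postn-204. In KO-labelled Ang II against WT saline they ranged from -0.25 to 0.12 for Thbs2, -0.085 to 1.28 for Tnc, -0.80 to 0.18 for Sparcl1, -0.48 to 0.75 for Sparc-201, -0.55 to 1.18 for Sparc-202 and -0.89 to 0.50 for Postn-201. The positive Spp1 differences of the KO-labelled Ang II libraries kept their sign in every alternative run, from 1.09 to 2.47 against WT Ang II and from 1.08 to 2.0 against WT saline. No paired analysis was possible because the groups share no animal numbers.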
